A study of Drosophila melanogaster with 9 samples.

Results

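The genes described here encode the proteins of the cytosolic ribosome of *Drosophila*, measured in cells that win cell competition in the wing disc and in control cells. They were taken by name, as the rows of the table of raw counts whose symbols are *RpS* or *RpL* with a number, *RpLP* with a number, or *sta*. This gave 88 of the 16492 rows, 38 for the small subunit and 50 for the large subunit. Cells marked with GFP were sorted from wing discs of larvae at the wandering stage, of 3 genotypes with 3 libraries each. At least 60 discs were dissected for a genotype, in triplicate. STAT supercompetitors (hop cells) were w/+; +/+; dpp-gal4, uas-gfp/uas-hop, and expressed the JAK kinase Hopscotch. Myc supercompetitors (Myc cells) carried uas-myc in place of uas-hop. Control cells (gfp cells) carried dpp-gal4, uas-gfp alone, so that all 3 genotypes shared the driver and the GFP transgene. The *dpp* driver is active in a stripe of the anterior compartment, so each library samples that stripe and not the whole disc. The labels give polyadenylated RNA as the molecule while the study describes total RNA, and the study also writes the *w* genotype of these flies differently in its legends, and neither point was resolved.

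Each ribosome has a small subunit that reads the mRNA and a large subunit that forms peptide bonds. Both are built from ribosomal RNA and a set of proteins, most of them needed in equal numbers. Loss of a copy of many of these genes gives the Minute phenotype in flies, and Minute cells are eliminated by wild-type neighbors in the wing disc. Myc is known to raise the expression of ribosomal protein genes and of the nucleolar factors that assemble ribosomes, and cells with more Myc than their neighbors become winners.

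The libraries held 5110634 to 6104490 counts, of which genes of ribosomal RNA took 20.8 to 27.2% and genes of the mitochondrial genome 3.09 to 5.19%. A total of 12741 genes passed the filter on low counts, and they were tested together with edgeR's quasi-likelihood test on all 9 libraries. Levels are CPM, the count of a gene scaled to a common library size after TMM normalization, fold changes are log2, and a gene was called at an adjusted p under 0.05 over all genes tested. The labels do not say that the libraries of a genotype came from separate crosses, so the p-values measure only the spread between these libraries. The smallest p of an exact permutation test between 3 and 3 libraries is 0.1. The targeted genes followed the labels. *hop* had 1360, 1145 and 1432 CPM in hop cells, against 62.6, 80.0 and 72.4 CPM in gfp cells. *dm*, the gene of Myc, had 774, 538 and 602 CPM in Myc cells, 351, 280 and 336 CPM in hop cells and 259, 237 and 233 CPM in gfp cells, and counts do not separate a transgene from the gene at its own locus. *dm* was called higher in Myc cells than in gfp cells by 1.39, while its difference of 0.41 between hop and gfp cells had an adjusted p of 0.0762. The 7 markers of the disc epithelium and *dpp* domain summed to 2546 to 2989 CPM in hop cells, 2210 to 2273 CPM in Myc cells and 2235 to 2444 CPM in gfp cells. The 3 markers of the posterior compartment, *hh*, *en* and *inv*, summed to 94.6 to 112 CPM, 72.0 to 82.7 CPM and 122 to 133 CPM in the same order. Muscle precursor, hemocyte, fat body, tracheal and neuronal markers were all detected, at summed levels of 145 to 189, 86.0 to 102, 16.5 to 28.6, 526 to 681 and 238 to 299 CPM in hop cells. In Myc cells these sums were 119 to 159, 67.9 to 87.7, 27.3 to 33.6, 426 to 464 and 163 to 253 CPM, and in gfp cells 142 to 197, 80.3 to 90.6, 24.4 to 28.7, 459 to 564 and 216 to 256 CPM. Most of the tracheal sum came from *vvl*, with means of 480, 339 and 413 CPM in hop, Myc and gfp cells. *btl* had 11.5, 20.3 and 17.3 CPM in the same order, so the tracheal sum mainly follows a single gene. Similar sums did not mean that single markers were alike. For hop against gfp, 1 of 6 muscle precursor markers tested was called higher and 2 lower. Of 5 hemocyte markers tested, 1 was higher and 1 lower, and no fat body, tracheal or neuronal marker was called. In the same comparison 1 of the 7 disc markers was called higher and no posterior marker was called. For Myc against gfp, 1 of the 3 posterior markers was called lower and no other marker was called. For hop against Myc, 3 of the 7 disc markers were called higher, 1 of 4 fat body markers lower, and no other marker was called. *Mef2*, the muscle precursor marker of highest level, averaged 125 CPM in hop cells and 79.8 CPM in gfp cells, while *stumps* averaged 8.67 and 30.3 CPM. The part of these markers in the results was not tested.

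The summed level of ribosomal protein genes was above gfp in every Myc library, while the hop libraries differed among themselves and hop 1 was close to gfp. They took 6.68, 6.94 and 7.01% of all counts in the Myc libraries and 4.94, 5.95 and 5.92% in the hop libraries, against 4.77, 4.70 and 5.42% in the gfp libraries. Every Myc library was therefore above every gfp library, while hop 1 lay between the gfp libraries. After TMM scaling, the members summed to 70764, 74787 and 67945 CPM in Myc cells and to 50636, 61212 and 63321 CPM in hop cells, against 45923, 44261 and 48623 CPM in gfp cells. The mean sum was 1.54 times that of gfp in Myc cells and 1.26 times in hop cells, and the hop mean was 0.820 times the Myc mean. On this scale all 3 hop libraries were above all gfp libraries, although hop 1 was nearer to gfp 3 than to hop 2. In bulk RNA a change in the make-up of the sorted cells and a change of RNA per cell cannot be told apart.

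**Figure D1:**
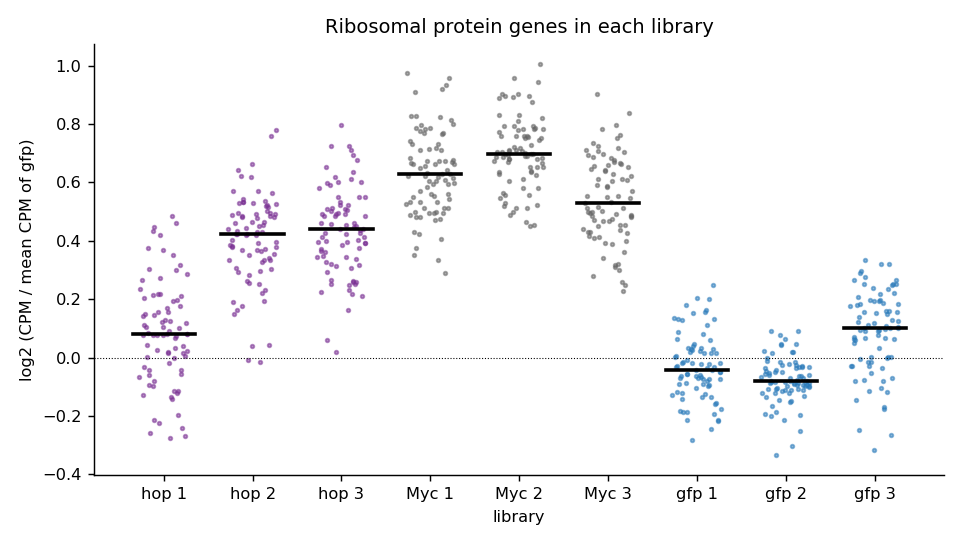
Log2 ratio of the CPM of each ribosomal protein gene to its mean over the gfp libraries, for the 9 libraries (x axis). Points are the genes with a mean of at least 10 CPM, black bars the median over the 85 genes tested. The bars stand at 0.08, 0.42 and 0.44 in hop 1 to hop 3, at 0.63, 0.70 and 0.53 in Myc 1 to Myc 3 and at -0.04, -0.08 and 0.10 in gfp 1 to gfp 3.

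The scaling of the libraries carries part of these values. TMM factors were 0.936 to 0.978 in hop cells and 0.929 to 1.03 in Myc cells, against 1.04 to 1.12 in gfp cells. With total counts alone, a setting chosen after seeing the data, the median over all genes tested moved to -0.17 for hop against gfp, where it was -0.02 with TMM. The median of the ribosomal protein genes was then 0.16 for hop against gfp and 0.47 for Myc against gfp. A change of scaling shifts all genes nearly alike, so the distance of the members from other genes does not bear on it. For hop against gfp, the members' median was 0.34 above that of all genes and 0.16 above that of genes with at least 100 CPM, with TMM and with total counts alike. For Myc against gfp these distances were 0.66 and 0.59 with TMM.

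The small and the large subunit moved together. The small subunit summed to 32364, 34955 and 32096 CPM in Myc cells and 23504, 28797 and 29693 CPM in hop cells, against 21348, 20808 and 22605 CPM in gfp cells. The large subunit summed to 38400, 39831 and 35849 CPM in Myc cells and 27132, 32415 and 33629 CPM in hop cells, against 24575, 23453 and 26018 CPM in gfp cells. In means, Myc cells had 1.54 times the gfp level for the small subunit and 1.54 times for the large subunit. In hop cells these ratios were 1.27 and 1.26. The ratio of small to large was 0.879 ± 0.0115 in hop cells, 0.872 ± 0.0267 in Myc cells and 0.875 ± 0.0106 in gfp cells (SD, n = 3 each), and the ranges of the 3 genotypes overlapped.

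In Myc cells, 71 of the 85 members tested rose relative to gfp cells (83.5%) and none fell. Of all genes tested, 2.35% were called higher in this comparison, and of the 1562 genes with a mean of at least 100 CPM, 11.0%. Called lower were 0.502% of all genes and 1.41% of those with at least 100 CPM. All 85 had a positive fold change, with a median of 0.63, which is 1.54-fold, and a range of 0.33 to 0.89. Over all genes tested the median was -0.04. In 81 members every Myc library was above every gfp library, which held for 10.8% of all genes tested and 24.9% of those with at least 100 CPM. No member lay the other way, with every Myc library below every gfp library, as 10.4% of all genes and 11.4% of those with at least 100 CPM did. Calls were made for 32 of 36 members of the small subunit and 39 of 49 of the large subunit. With a left-out library, the number called lay between 25 without gfp 2 and 77 without hop 1, and it was 32 without gfp 1. Among the 22 members called in every fit that was run, alternatives included, were *RpS2*, *RpS3*, *RpS4*, *RpS5a*, *RpS20*, *RpS25*, *RpS26*, *RpL4*, *RpL6*, *RpL7*, *RpL9*, *RpL10*, *RpL12*, *RpL13*, *RpL14*, *RpL19*, *RpL21*, *RpL23A*, *RpL26*, *RpL35A* and *RpLP1*.

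Among small subunit genes, the largest increase in Myc cells was that of *RpS20* (3R, 20822181 to 20823356), whose protein lies in the head of the subunit. It had 647, 740 and 658 CPM in Myc cells, against 317, 345 and 442 CPM in gfp cells. The fold change was 0.89 ± 0.16 (SE) with an adjusted p of 0.00562, and the 2 groups lay well apart. *RpS3* (3R, 23358812 to 23360207), a Minute gene whose protein lines the entry channel of the mRNA, had 3147, 3333 and 3355 CPM in Myc cells, against 2052, 2080 and 2008 CPM in gfp cells. Its libraries were close together in both genotypes, and its fold change of 0.68 ± 0.10 had an adjusted p of 0.00177. *RpS5a* had 753, 709 and 688 CPM in Myc cells, against 433, 442 and 435 CPM in gfp cells (0.71 ± 0.10, adjusted p 0.00148). *RpS26*, whose protein sits at the exit of the mRNA channel, had 635, 651 and 617 CPM in Myc cells, against 408, 391 and 359 CPM in gfp cells (0.72 ± 0.11, adjusted p 0.0029). Neither gene had a Myc library near a gfp library. *RpS6*, the substrate of S6 kinase, had 1184, 1208 and 961 CPM in Myc cells, against 783, 713 and 645 CPM in gfp cells (0.65 ± 0.12, adjusted p 0.00568). *sta*, the fly counterpart of the laminin receptor protein RPSA, rose by 0.62 ± 0.11 (adjusted p 0.00704). The *RpS6* call was lost without gfp 3 and the *sta* call without gfp 2.

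Among large subunit genes, *RpL9* (2L, 11002758 to 11004189) had the smallest p. It had 879, 946 and 817 CPM in Myc cells, against 538, 493 and 516 CPM in gfp cells (0.77 ± 0.11, adjusted p 0.00112). *RpL35A* had 415, 452 and 419 CPM in Myc cells, against 249, 241 and 241 CPM in gfp cells (0.82 ± 0.12, adjusted p 0.00228). *RpL26*, at the exit of the peptide tunnel, had 549, 577 and 510 CPM in Myc cells, against 335, 320 and 275 CPM in gfp cells (0.81 ± 0.12, adjusted p 0.00211). In all 3 genes the lowest Myc library was more than 1.5 times the highest gfp library. *RpL12*, at the base of the stalk that binds elongation factors, rose by 0.76 ± 0.12, and *RpL6* by 0.74 ± 0.12, both with an adjusted p of 0.0029. *RpL13* and *RpL19* each rose by 0.68 ± 0.10, with adjusted p of 0.00177 and 0.00233. *RpL5* and *RpL11*, which bind the 5S ribosomal RNA together, rose by 0.55 ± 0.10 (adjusted p 0.00818) and 0.50 ± 0.10 (adjusted p 0.0121). The *RpL5* call was lost without gfp 2 or gfp 3, and that of *RpL11* without gfp 1, gfp 2 or gfp 3.

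Among the 14 members not called in Myc cells were *RpL10Aa*, *RpL24*, *RpL34a*, *RpL36*, *RpL37a*, *RpL38*, *RpL39*, *RpL40*, *RpL41*, *RpLP2*, *RpS5b*, *RpS19b* and *RpS29*. *RpS29* had the lowest fold change of all members, 0.33 ± 0.17 (adjusted p 0.45), with 546, 612 and 523 CPM in Myc cells, against 407, 375 and 558 CPM in gfp cells. It was gfp 3 that reached the Myc range. For *RpL24* the groups did not overlap, with 849, 959 and 835 CPM in Myc cells, against 680, 683 and 656 CPM in gfp cells, and the fold change of 0.39 ± 0.11 had an adjusted p of 0.0798. *RpL36*, a Minute gene, had a fold change of 0.53 ± 0.15 (adjusted p 0.0798). A further 2 members, *RpL40* and *RpS27A*, encode a ribosomal protein fused to ubiquitin. *RpL40* had 0.39 ± 0.12 (adjusted p 0.0992), while *RpS27A* was called with 0.58 ± 0.11 (adjusted p 0.01), but not without gfp 1 or gfp 2.

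In hop cells, 11 of the 85 members rose relative to gfp cells (12.9%) and none fell. Of all genes tested, 3.16% were called higher, but of the genes with at least 100 CPM, to which most members belong, it was 9.22%, so the share of the members is above the background of all genes and near that of genes of high level. Called lower were 3.37% of all genes tested and 1.41% of the genes with at least 100 CPM. At an unadjusted p under 0.05, 58 members were higher. A positive fold change was found for 83, and the median was 0.32, or 1.25-fold, with quartiles of 0.26 and 0.38. Over genes with at least 100 CPM the median was 0.16. In 31 members every hop library was above every gfp library, against 14.8% of all genes tested and 35.3% of those with at least 100 CPM. The reverse, every hop library below every gfp library, held for 0 of the members, 16.5% of all genes tested and 5.31% of those with at least 100 CPM. The number called rested on single libraries. It was 0 without gfp 2, 0 without hop 3, 1 without gfp 3 and 5 without gfp 1, but 48 without hop 1, 39 without Myc 1 and 18 without Myc 2. No member was called in every one of these fits, and none was called with total count scaling.

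The 11 called were *RpS3*, *RpS5a* and *RpS15* of the small subunit and *RpL3*, *RpL4*, *RpL6*, *RpL7*, *RpL8*, *RpL13*, *RpL23A* and *RpL28* of the large subunit. All 11 were also called in Myc cells, as were 83.5% of all members, and both comparisons use the same gfp libraries. *RpL3* (3R, 11221894 to 11225173), whose protein reaches to the peptidyl transferase center, had the smallest p. It had 888, 941 and 929 CPM in hop cells and 1131, 913 and 868 CPM in Myc cells, against 665, 605 and 682 CPM in gfp cells. The hop libraries were closer to each other than the Myc libraries, and the fold change of hop against gfp was 0.50 ± 0.11 (adjusted p 0.0178). *RpL28* (3L, 3220911 to 3222960) had the largest fold change of those called, with 732, 1031 and 880 CPM in hop cells, against 531, 588 and 683 CPM in gfp cells (0.55 ± 0.13, adjusted p 0.0215). *RpL6* had 671, 589 and 793 CPM in hop cells, against 534, 451 and 454 CPM in gfp cells (0.51 ± 0.12, adjusted p 0.0194). *RpS3* had 2464, 2677 and 3065 CPM in hop cells, against 2052, 2080 and 2008 CPM in gfp cells (0.42 ± 0.10, adjusted p 0.0227). In these genes no hop library overlapped a gfp library.

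*RpS15* had 1035, 1374 and 1344 CPM in hop cells, against 839, 843 and 994 CPM in gfp cells (0.49 ± 0.12, adjusted p 0.0299). *RpL8*, next to the peptidyl transferase center, had 742, 662 and 842 CPM in hop cells, against 617, 512 and 535 CPM in gfp cells (0.43 ± 0.11, adjusted p 0.035). *RpL4* and *RpL7*, like *RpL6* and *RpL8*, had their lowest hop level in hop 2 and not in hop 1. *RpL4*, which lines the exit tunnel, had 889, 757 and 1044 CPM in hop cells, against 742, 599 and 594 CPM in gfp cells (0.48 ± 0.13, adjusted p 0.0373). *RpL7* had 1062, 969 and 1362 CPM in hop cells, against 931, 824 and 740 CPM in gfp cells (0.44 ± 0.13, adjusted p 0.0463). *RpL13* (0.38 ± 0.10, adjusted p 0.0327), *RpS5a* (0.37 ± 0.10, adjusted p 0.0367) and *RpL23A* (0.46 ± 0.13, adjusted p 0.047) complete the list. The fold change was negative for *RpS15Ab* and for the weakly expressed *RpS5b*. *RpS5b* had 1.12, 4.06 and 1.75 CPM in hop cells, against 2.74, 4.29 and 3.69 CPM in gfp cells (-0.62 ± 0.48, adjusted p 0.45). Near 0 were *RpL24* and *RpS20*. *RpS20* had 306, 471 and 426 CPM in hop cells, against 317, 345 and 442 CPM in gfp cells, so the groups overlapped (0.12 ± 0.15, adjusted p 0.663). *RpL24* had 612, 665 and 800 CPM in hop cells, against 680, 683 and 656 CPM in gfp cells (0.04 ± 0.11, adjusted p 0.852). *RpL24* and *RpS20* turned negative with total count scaling, *RpS20* to -0.043 and *RpL24* to -0.12.

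**Figure D2:**
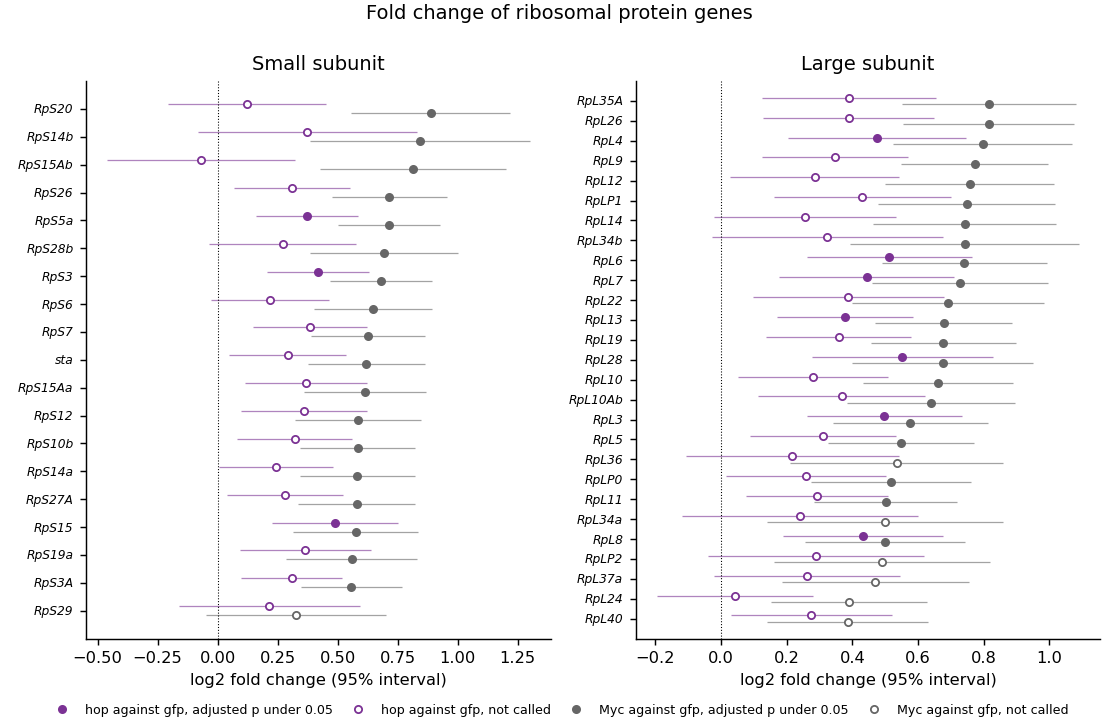
Log2 fold change (x axis) with its 95% interval for 46 ribosomal protein genes with a mean of at least 10 CPM, chosen by the rule for named genes, by subunit, for hop against gfp (purple) and Myc against gfp (grey). Filled points have an adjusted p under 0.05 over all genes tested, and the grey points lie to the right of the purple ones, with filled points for 10 of the genes shown in hop cells and 39 in Myc cells.

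Set against Myc cells directly, hop cells had lower levels of ribosomal protein genes. The fold change was negative for 84 of 85 members, with a median of -0.30, where the median of all genes was -0.02. Of the members, 9 were called lower (10.6%) and none higher, whereas 3.19% of all genes tested and 4.93% of those with at least 100 CPM were called lower and 3.35% and 11.4% higher. In 46 members every hop library was below every Myc library, which held for 13.1% of all genes tested, and in 0 every hop library was above, against 11.4% of all genes tested and 25.2% of those with at least 100 CPM. At an unadjusted p under 0.05, 52 members were lower. The 9 called were *RpS6*, *RpS15Ab*, *RpS20*, *RpS26*, *RpL9*, *RpL10*, *RpL12*, *RpL14* and *RpL26*. Each of them was also called higher in Myc cells than in gfp cells, as were 83.5% of all members, and both comparisons use the same Myc libraries.

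*RpS20* showed this most firmly, with a difference of -0.77 ± 0.16 (adjusted p 0.0111), and it was the only member called in every fit. Its highest hop library, 471 CPM in hop 2, was below its lowest Myc library, 647 CPM in Myc 1. *RpL9* had 591, 667 and 710 CPM in hop cells, against 879, 946 and 817 CPM in Myc cells (-0.42 ± 0.10, adjusted p 0.0252). *RpL12* had 427, 569 and 600 CPM in hop cells, against 731, 777 and 706 CPM in Myc cells (-0.47 ± 0.12, adjusted p 0.0304). *RpL14*, a Minute gene, had 602, 745 and 810 CPM in hop cells, against 952, 1124 and 942 CPM in Myc cells (-0.49 ± 0.13, adjusted p 0.0373). The groups did not overlap in any of these. *RpL10*, which joins the large subunit at a late step of its assembly, had 1705, 2100 and 2082 CPM in hop cells, against 2597, 2765 and 2305 CPM in Myc cells (-0.38 ± 0.11, adjusted p 0.0457). *RpS6* had 792, 791 and 908 CPM in hop cells, against 1184, 1208 and 961 CPM in Myc cells (-0.43 ± 0.12, adjusted p 0.0384). At the other end, *RpL10Aa* had the only positive difference between hop and Myc cells, 0.75, and was not called. *RpL3*, *RpL8* and *RpS15* had small differences of -0.08 ± 0.11, -0.07 ± 0.11 and -0.09 ± 0.12. Without single libraries, 1 member was called without Myc 2, 2 without gfp 3, 2 without hop 1, 2 without hop 2, 3 without gfp 2, 4 without Myc 3 and 15 without Myc 1. Of the 15, 14 were lower, and 1, the weakly expressed *RpL10Aa*, was higher in hop cells.

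The libraries of a genotype differed in a regular way. Of the 85 members, 72 had their lowest hop level in hop 1, which was the lowest hop library for 35.1% of all genes tested. In Myc cells Myc 2 was the highest for 62 members and Myc 3 the lowest for 58, and in gfp cells gfp 3 was the highest for 55. In hop and gfp cells the ratios between some libraries went with the length of the gene. Over the 80 members with at least 50 CPM, the log ratio of hop 1 to hop 2 had a Spearman correlation of 0.79 with coding length, and that of hop 2 to hop 3 one of -0.65. For hop 1 to hop 3 it was 0.54. The ratio of gfp 1 to gfp 3 had 0.69 and that of gfp 2 to gfp 3 had 0.72, while that of gfp 1 to gfp 2 had 0.23 and the ratios among the Myc libraries had -0.17 to 0.26. The members share the libraries and their depth, so these are descriptions.

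Short members were thus relatively low in hop 1 and hop 3 when set against hop 2, and in gfp 1 and gfp 2 when set against gfp 3. In the 39 members with a coding length below the members' median of 465 bases, the median log2 ratio to gfp was 0.00 in hop 1, 0.49 in hop 2 and 0.40 in hop 3. In the 41 longer members it was 0.15, 0.35 and 0.46. In gfp 1, gfp 2 and gfp 3 it was -0.09, -0.10 and 0.18 for the shorter members and 0.01, -0.05 and 0.00 for the longer ones. Of the 11 calls in hop cells, 9 fell on the longer members and 2 on the shorter ones. Between genotypes the correlation with length was 0.38 for hop against gfp, 0.22 for Myc against gfp and 0.02 for hop against Myc. In Myc cells 30 of the 39 shorter and 39 of the 41 longer members were called, with medians of 0.59 and 0.66. The part of gene length in the calls was not tested.

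**Figure D3:**
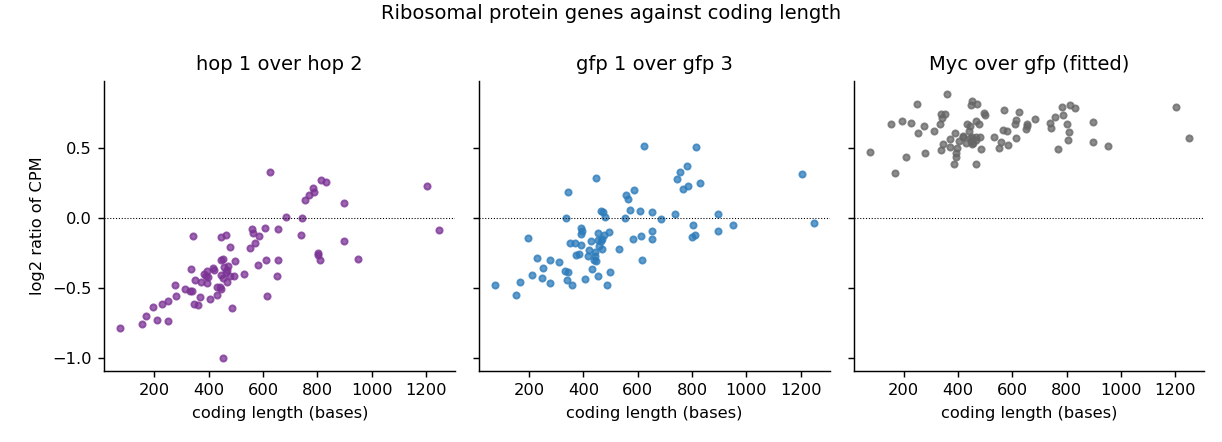
Log2 ratio (y axis) against coding length in bases (x axis) for the 80 ribosomal protein genes with a mean of at least 50 CPM, for hop 1 over hop 2, gfp 1 over gfp 3, and the fitted fold change of Myc over gfp. The first 2 panels compare libraries of the same genotype and slope upward (Spearman correlations 0.79 and 0.69), while the last panel is flatter (0.22).

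The fly genome holds more than one gene for several ribosomal proteins, and in each pair one gene gave nearly all or most of the counts. For 12 pairs with both genes in the table, the share of the minor gene in the counts of its pair was computed, and the 36 comparisons of shares between genotypes were tested by an exact two-sided permutation test. No comparison could pass 0.05, since the smallest p of this test with 3 libraries against 3 is 0.1. The smallest adjusted p was 0.655, so the test cannot decide whether shares differed. Reads from near-identical copies can be split or lost in counting, so levels of paralogues are uncertain.

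*RpS15Ab* (2R, 10821676 to 10822399) had shares that did not overlap between hop and Myc cells. It made 3.64, 3.19 and 3.25% of the counts of *RpS15Aa* and *RpS15Ab* in hop cells and 5.04, 5.26 and 4.97% in Myc cells, against 3.64, 4.96 and 4.77% in gfp cells. Every hop library was below every Myc library (p = 0.1, the smallest the exact test can give), and hop and gfp cells overlapped. In level, it had 47.0, 53.1 and 44.3 CPM in Myc cells, against 22.5, 28.1 and 31.3 CPM in gfp cells, and was called with 0.81 ± 0.18 (adjusted p 0.021), but not without gfp 1, gfp 2 or Myc 2 or with total count scaling. In hop cells it had 23.4, 27.2 and 27.7 CPM, which was lower than in Myc cells (-0.88 ± 0.18, adjusted p 0.0115) and within the gfp range of 22.5 to 31.3 CPM. The difference between hop and Myc cells was not called without Myc 2. Its partner *RpS15Aa* had 620, 826 and 825 CPM in hop cells and 885, 958 and 848 CPM in Myc cells, against 596, 539 and 625 CPM in gfp cells. The difference between hop and Myc cells was thus -0.88 for the minor gene and -0.24 for the major one.

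*RpS14a* and *RpS14b* are neighbors on the X chromosome (7933742 to 7934677 and 7934898 to 7935792). *RpS14b* made 12.2, 18.5 and 16.3% of their counts in hop cells and 18.5, 16.9 and 16.2% in Myc cells, against 13.9, 14.0 and 16.1% in gfp cells. The largest spread was within hop cells. *RpS14a* rose in Myc cells by 0.58 ± 0.11 (adjusted p 0.00873), a call lost without gfp 1 or gfp 2. *RpS14b* was just past the threshold with 0.84 ± 0.21 (adjusted p 0.0494), and its call was lost in 12 of 23 alternatives, among them each gfp or Myc library left out. *RpL34b* made 27.0, 20.3 and 24.2% of the counts of its pair in hop cells, 22.3 to 28.5% in Myc cells and 19.4 to 27.4% in gfp cells. It was called in Myc cells with 0.74 ± 0.17 (adjusted p 0.0199), but not without gfp 1, gfp 2, gfp 3 or Myc 1 or with total count scaling. *RpL34a* was not called, with 0.50 ± 0.17 (adjusted p 0.16).

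*RpL24-like*, which acts in the assembly of the large subunit in yeast, made 6.57 to 7.85% of the counts of its pair in hop cells, 7.13 to 7.97% in Myc cells and 5.85 to 7.19% in gfp cells. It was called in Myc cells with 0.62 ± 0.16 (adjusted p 0.0399), a call lost when any single gfp or Myc library was left out and with total count scaling (adjusted p 0.0076 to 0.215 over all alternatives). The other minor genes had few counts. *RpL22-like* had 12, 16 and 17 counts in hop cells and 10, 7 and 16 counts in Myc cells, against 6, 7 and 4 counts in gfp cells. Its share of the pair was 2.62, 3.54 and 2.77% in hop cells and 1.53, 1.39 and 2.38% in Myc cells, against 1.71, 1.65 and 0.905% in gfp cells. The hop shares were above all others, at counts this low (fold change of hop against gfp 1.46 ± 0.56, adjusted p 0.118). *RpS5b* and *RpS19b*, known as germline forms, made 0.207 to 0.962% and 0.578 to 1.07% of their pairs over the 9 libraries. *RpL10Aa* made 0.123 to 1.18%, with 40 counts each in hop 1 and Myc 1 and 29 in gfp 1. The libraries numbered 1 thus held the highest count of each genotype for this gene. For hop against gfp, *RpL10Aa* had the largest fold change of all members, 1.12, but was not called (adjusted p 0.324). *RpS10a*, *RpS28a* and *RpL37b* did not pass the filter and had at most 8, 19 and 4 counts in a library.

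**Figure D4:**
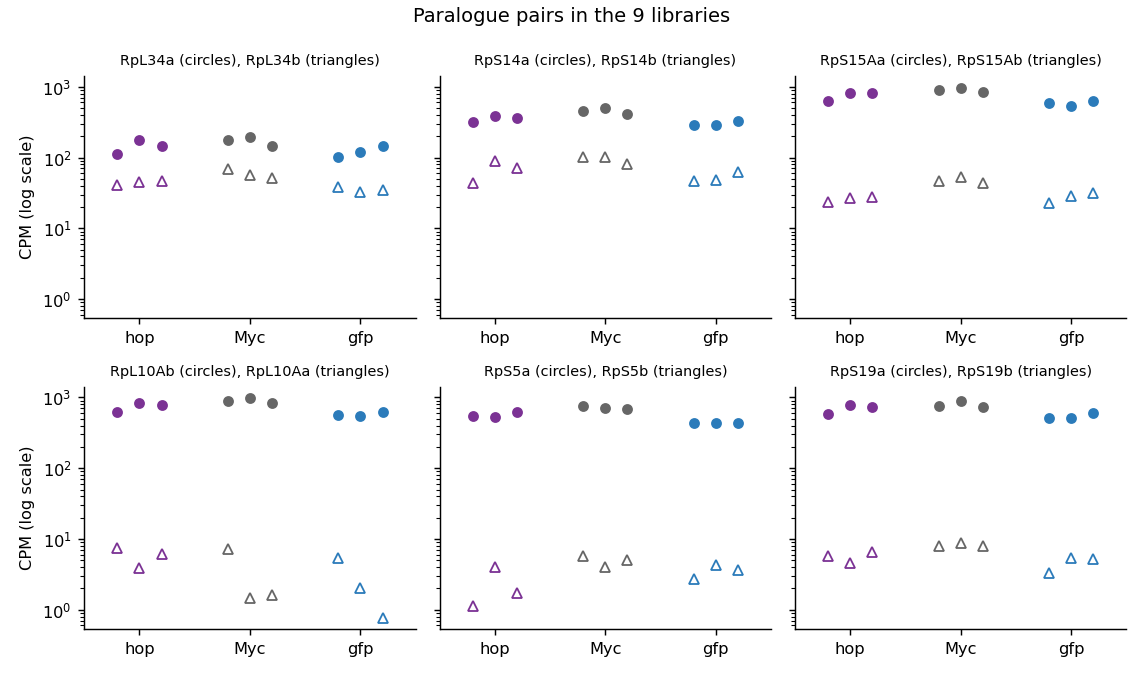
CPM on a log scale (y axis) of 6 paralogue pairs in the 3 libraries each of hop, Myc and gfp, with circles for the major and open triangles for the minor gene. *RpS15Ab* stands at 23.4 to 27.7 CPM in hop cells, 44.3 to 53.1 CPM in Myc cells and 22.5 to 31.3 CPM in gfp cells, and *RpL10Aa*, *RpS5b* and *RpS19b* stay below 10 CPM.

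Per kilobase of exon, members differed widely in level. *RpL41*, which encodes a very short peptide, was highest, with 3250 ± 904 CPM per kilobase in hop cells, 4080 ± 169 in Myc cells and 2936 ± 581 in gfp cells (SD, n = 3 each). *RpS3* came next with 2414 ± 269, 2893 ± 101 and 1806 ± 32.3 in the same order, and *RpS3A* followed with 1950 ± 187, 2316 ± 112 and 1573 ± 58.0. In hop cells the libraries of *RpL41* and *RpS3* overlapped. Apart from the minor paralogues, the lowest was *RpL22*, with 80.2 ± 13.2 CPM per kilobase in hop cells, 99.0 ± 4.7 in Myc cells and 61.3 ± 3.9 in gfp cells. In CPM, *RpL22* had 115, 105 and 107 in Myc cells, against 63.1, 71.7 and 67.3 in gfp cells, and was called (0.69 ± 0.14, adjusted p 0.0102), but not without gfp 1 or gfp 3. Its exons share 377 of 1100 bases with a non-coding gene.

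*RpLP0*, *RpLP1* and *RpLP2* form the stalk, which recruits elongation factors. *RpLP1* had 735, 769 and 586 CPM in Myc cells, against 433, 378 and 432 CPM in gfp cells, and was called (0.75 ± 0.13, adjusted p 0.0038). *RpLP0* was called with 0.52 ± 0.12 (adjusted p 0.0201), but not without gfp 1, gfp 2, gfp 3 or Myc 2 or with total count scaling. *RpLP2* had 609, 683 and 508 CPM in Myc cells, against 374, 400 and 507 CPM in gfp cells, with 0.49 ± 0.15 (adjusted p 0.122). In hop cells none of the 3 was called, with 0.43 ± 0.13 for *RpLP1*, 0.26 ± 0.12 for *RpLP0* and 0.29 ± 0.15 for *RpLP2*.

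*RpS12* is required for the elimination of Minute cells in flies, where it acts upstream of *Xrp1*, a transcription factor that slows the growth of those cells. *RpS12* had 683, 761 and 657 CPM in Myc cells and 501, 642 and 654 CPM in hop cells, against 438, 434 and 528 CPM in gfp cells. It was called in Myc cells (0.59 ± 0.12, adjusted p 0.0151), but not without gfp 1, gfp 2 or Myc 2 or with total count scaling, and in hop cells its fold change was 0.36 ± 0.12 (adjusted p 0.0858). *Xrp1* had 505, 477 and 482 CPM in hop cells and 517, 349 and 352 CPM in Myc cells, against 347, 331 and 322 CPM in gfp cells. It was called in hop cells (0.55 ± 0.13, adjusted p 0.0261), and in Myc cells only Myc 1 stood clearly above gfp (0.28 ± 0.13, adjusted p 0.357). The *Xrp1* call was lost without gfp 1, gfp 2, gfp 3 or hop 3 and with total count scaling, and over all alternatives the adjusted p lay between 0.000674 and 0.129.

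Other genes of the translation machinery gave a frame for these values. *Rack1*, a protein of the small subunit that the naming rule leaves out, had 664, 588 and 614 CPM in Myc cells and 431, 455 and 579 CPM in hop cells, against 405, 310 and 354 CPM in gfp cells. It was called in both, with 0.80 ± 0.13 in Myc cells (adjusted p 0.0029) and 0.45 ± 0.13 in hop cells (adjusted p 0.0457). The call in hop cells was lost without gfp 2, gfp 3, hop 3 or Myc 3, among other settings. *Tctp*, a growth regulator, rose by 0.48 ± 0.10 in Myc cells (adjusted p 0.0158), a call lost without gfp 1, gfp 2, gfp 3 or Myc 2. *Thor*, the translation inhibitor 4E-BP, had 24.9, 17.8 and 26.1 CPM in hop cells and 16.3, 19.2 and 22.8 CPM in Myc cells, against 10.6, 10.6 and 12.4 CPM in gfp cells. It was called in hop cells (1.03 ± 0.24, adjusted p 0.0192), but not without gfp 1, gfp 2, gfp 3 or hop 3.

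Of 7 elongation factor genes, 5 rose in Myc cells and 2 in hop cells, with medians of 0.58 and 0.34, close to those of the ribosomal protein genes. Of all genes tested, 2.35% were called higher in Myc cells and 3.16% in hop cells. Of genes with at least 100 CPM, to which all of these but *Ef1alpha100E* belong, 11.0% and 9.22% were called higher. *Ef1alpha48D*, the main gene of elongation factor 1 alpha, rose by 0.71 in Myc cells (adjusted p 0.000859) and 0.41 in hop cells (adjusted p 0.0191). The count of 2 in hop cells was 0 without gfp 1, gfp 2 or gfp 3 and with total count scaling, 1 without hop 2 or hop 3, and 4 without hop 1, Myc 1 or Myc 2. Of 20 genes of ribosome biogenesis, 10 rose in Myc cells and 1, *CG8801*, in hop cells, with medians of 0.52 and 0.14, which for hop was -0.02 with total count scaling. *mod*, a nucleolar protein, rose by 0.86 in Myc cells (adjusted p 0.000613), and *Nop60B*, the pseudouridine synthase of ribosomal RNA, by 0.92 (adjusted p 0.000994). Their fold changes in hop cells were 0.17 (adjusted p 0.339) and 0.42 (adjusted p 0.0516), and for hop against Myc both were called lower, by -0.69 and -0.50. In that comparison 6 of the 20 were lower and none higher, where 3.19% of all genes tested were lower and 3.35% higher. Of genes with at least 100 CPM, 4.93% were lower and 11.4% higher. The count of 1 in hop cells was 0 without gfp 1, gfp 2, gfp 3, hop 2 or hop 3 and with total count scaling, and 2 without hop 1, Myc 1 or Myc 2. The count of 10 in Myc cells was 3 without gfp 1, 3 without gfp 2 and 3 with total count scaling. The count of 6 for hop against Myc was 1 without hop 1, Myc 2 or Myc 3, 2 without hop 2 or gfp 3, 3 without hop 3 or gfp 2 and 4 without gfp 1.

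Mitochondrial ribosomal protein genes had a median of -0.40 in hop cells (-0.56 with total count scaling) and 0.39 in Myc cells (0.23 with total count scaling) relative to gfp cells over the 71 tested, at levels far below those of the cytosolic genes. Over all genes tested the medians were -0.02 and -0.04, with quartiles of -0.41 and 0.27 for hop and -0.28 and 0.21 for Myc. The calls were few, with 2 higher and none lower in each of the comparisons with gfp. Of all genes tested, 3.16% were called higher and 3.37% lower for hop against gfp, and 2.35% and 0.502% for Myc against gfp. For hop against gfp the count of 2 was 0 without gfp 2, gfp 3 or hop 3, 1 without gfp 1, hop 1 or hop 2, and 4 without Myc 1, where 2 were lower. For Myc against gfp it was 1 without gfp 1 or gfp 2. For hop against Myc 6 were lower and none higher, where 3.19% of all genes tested were lower and 3.35% higher. The median was -0.68, and with single libraries left out it lay between -0.77 and -0.64. The count of 6 was 26 without Myc 1, 4 without gfp 2 or hop 2, 2 without hop 1, 1 without hop 3 and 0 without Myc 2 or Myc 3. *mRpL54* was called higher in both kinds of winner, by 1.15 in hop cells (adjusted p 0.0307) and 1.77 in Myc cells (adjusted p 0.00345).

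**Figure D5:**
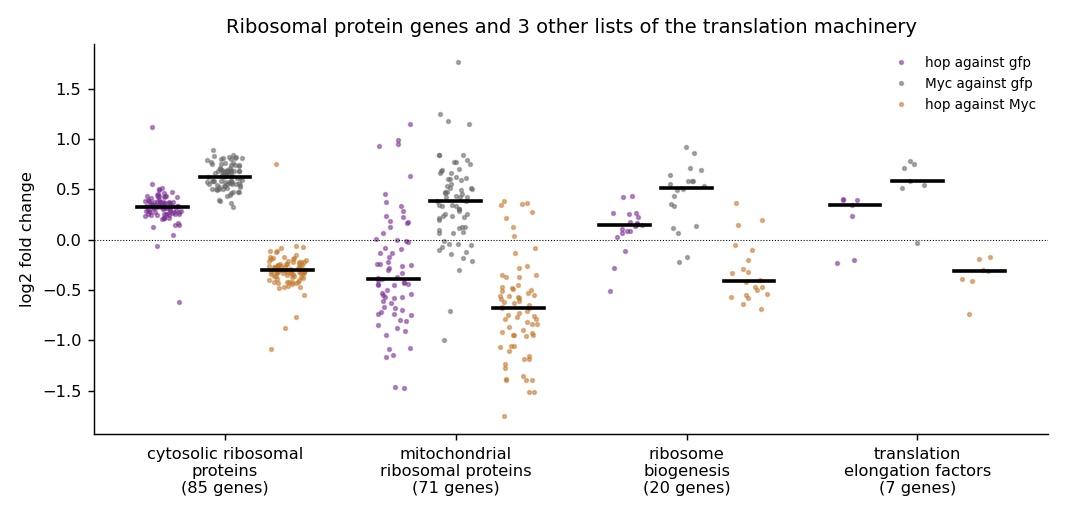
Log2 fold change (y axis) of the genes of 4 lists (x axis, with the number tested) in 3 colors, for hop or Myc over gfp and for hop over Myc. Points are genes and black bars medians, at 0.32, 0.63 and -0.30 for cytosolic ribosomal proteins and at -0.40, 0.39 and -0.68 for mitochondrial ribosomal proteins.

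All 88 members were found in the BDGP6 annotation, 86 under their own name and 2, *RpL37a* and *RpL37b*, under a synonym. They lie on all chromosome arms, with 22 on 3R, 19 on 2R, 17 on 2L, 15 on X, 14 on 3L and 1, *RpS3A*, on chromosome 4. Medians by arm were 0.29 to 0.38 for hop against gfp and 0.58 to 0.68 for Myc against gfp, and *RpS3A* had 0.31 and 0.56. In 28 members the exons share bases with another gene. The strand setting of the counting is not given in the sources used here, so their counts are uncertain by the share of the partner. Among those called in hop cells, *RpL3* shares up to 412 of its 2231 exon bases and *RpL23A* up to 421 of 1321, while *RpL28* shares 33 of 1382, *RpL4* 10 of 1400 and *RpS15* 9 of 810. *RpS20* shares 44 of its 564 exon bases and *RpS6* up to 142 of 1195.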

How the data were processed

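RNA was sequenced from 9 libraries of sorted wing disc cells, 3 each of hop, Myc and gfp. The authors aligned reads to dm6 with STAR, removed PCR duplicates with Picard and counted reads per gene with HTSeq, and the deposited raw counts are whole numbers for 16492 symbols. The deposited table of normalized signal values holds counts divided by the DESeq2 size factor of each library, and 100% of its values lay within 0.02 of a whole read when multiplied back. The versions of these tools, the annotation used for counting and its strand option were not stated in the paper or labels.

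Raw counts were filtered with filterByExpr (12741 genes, 85 of the 88 members) and fitted in edgeR 4.0.16 (R 4.3.3) with TMM scaling and robust quasi-likelihood F-tests, with all 9 libraries in the fit, genotype as the only term and Benjamini-Hochberg adjustment over all genes tested. Standard errors are the fold change over the root of the F statistic, and intervals use the same error. Shares within pairs were compared with exact permutation tests in SciPy 1.17.1. Coordinates, exon and coding lengths are from BDGP6, and the figures were drawn with matplotlib 3.10.9.

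The members and lists were chosen with earlier results of these data known. Members are named for being in a paralogue pair, for a known role, for being among the 10 smallest p of those called in each direction, the 3 largest or smallest fold changes of a comparison, or the 5 highest or lowest mean CPM. Others are named in counts or lists of calls, and *CG8801*, *Ef1alpha48D*, *mod*, *Nop60B*, *mRpL54*, *RpL23A* and *RpL41* were chosen after their values were seen.

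The test was tried on simulated counts with known changes, and it missed most of the small ones. At 1.5-fold, it called 8 of 66 such genes for Myc against gfp and 9 of 66 for hop against Myc. For Myc against gfp the number was 20 of 66 when the simulated difference was 2-fold. It reached 52 of 63 when that difference was 4-fold. A gene that was not called may therefore still differ. Alternatives were RLE and upper quartile scaling, TMM without the members, removal of genes of ribosomal RNA and of the mitochondrial genome, no filter, at least 10 counts in every library, the replicate number as a block, reads recovered from the signal table, the 6 libraries compared alone, DESeq2 1.42.0, limma-voom 3.58.1 and each library left out. Total count scaling, edgeR without robust estimation and leaving out gfp 1 and Myc 1 together were added after seeing the data. Promoter motifs were not searched, for want of a genome sequence in the sources used. *RpL7-like* was not analysed here. Some members are counted but not reported by name here.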

Additional observations from a re-analysis of the deposited data

How the results depend on the processing

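The number of ribosomal protein genes called in hop against gfp was 11, and it was 17 with RLE scaling, 5 with upper quartile scaling, 18 without genes of ribosomal RNA and the mitochondrial genome, 17 with no filter, 30 with the 6 libraries alone, 21 with DESeq2, 17 with limma-voom, 0 with total count scaling and 21 without gfp 1 and Myc 1 together. Leaving out single libraries gave 0 to 48. In Myc against gfp it was 71, and it was 38 without gfp 1 and Myc 1 together, 41 with total count scaling and 25 to 77 with single libraries left out. In hop against Myc it was 9, and it was 5 with RLE scaling, 20 with upper quartile scaling, 21 with at least 10 counts in every library, 5 with the recovered reads, 2 with the 6 libraries alone, 14 with limma-voom, 14 with total count scaling and 1 to 15 with single libraries left out. The direction of the median did not turn under any of these settings. With total count scaling it was 0.16 for hop against gfp and 0.47 for Myc against gfp, and with single libraries left out it lay between 0.29 and 0.46 and between 0.59 and 0.69.

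A fit that took replicate number as a block called 20 members in hop against gfp, 74 in Myc against gfp and 16 in hop against Myc. Same-numbered libraries had positive correlations of their deviations in all pairs but hop 3 and Myc 3 (-0.14), with 0.39 for gfp 1 and Myc 1 and 0.25 for gfp 1 and hop 1 at the upper end and 0.07 for gfp 2 and hop 2. Libraries of different numbers had correlations between -0.34 (gfp 1 and Myc 2) and 0.22 (gfp 3 and Myc 2). As not every same-numbered pair was over 0.1, the main fit took no pairing, and not every library correlated best with its own number. This cut does not decide whether the numbers pair the libraries, and the block fit called more members in all 3 comparisons.

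Of the 12 pairs of paralogues, those whose shares did not overlap numbered 1 in hop against gfp, and with single libraries left out 1 to 5. In Myc against gfp they were 2 and then 2 to 5, and in hop against Myc 2 and then 2 to 4. Libraries that do not differ by genotype separate fully, 3 from 3, with a probability of 0.1, and more often when there are fewer. These counts therefore cannot decide whether shares differed. Of single members, fold changes near 0 changed sign. For hop against gfp, *RpL24* was -0.027 with upper quartile scaling, -0.12 with total count scaling and between -0.045 and 0.15 with single libraries left out, *RpS20* was -0.043 with total count scaling, and *RpS15Ab* lay between -0.19 and 0.069 with single libraries left out. For Myc against gfp, *RpL10Aa* lay between -0.74 without Myc 1 and 1.28 without gfp 1. For hop against Myc, *RpL3* was 0.055 without gfp 1 and Myc 1 together, and with single libraries left out *RpL3* lay between -0.15 and 0.054, *RpL8* between -0.15 and 0.031, *RpS15* between -0.15 and 0.037, and *RpS29* between -0.26 and 0.061. The cause was not tested. Over the named genes, 3574 of 3992 values under alternatives kept their direction and their side of the threshold. These include results that were not called and stayed so, and the number does not measure how firm the calls were. Of the rest, 243 lost a call, 162 gained one and 13 changed sign. For hop against gfp, each called member named by the rule lost its call in 4 (*RpL3*) to 9 (*RpL7*) of 23 alternatives.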
